A study of Mus musculus with 12 samples.

Results

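Expression of 10 genes of IL-6 family and IL-33 cytokine signalling was followed in 3T3 cells, a mouse fibroblast line, with and without extracellular vesicles (EVs) of breast cancer cells. The genes were chosen by symbol: the ligands Il6, Lif, Il11 and Clcf1, the receptors Il6st, Lifr and Osmr, the feedback inhibitor Socs3, the cytokine Il33 and its receptor Il1rl1. This choice was made with earlier results of these data known. All 10 were found among the 32544 symbols of the deposited table, and all 10 were among the 14279 genes that passed the filter on low counts. RNA was sequenced in 4 groups of 3 libraries each. One group of 3T3 cells was left untreated, and the other groups received, for 24 h, EVs from MDA-MB-468, a human triple-negative breast cancer line. No time is given for the untreated cells, and no group is labelled as mock treated. In comparisons with untreated cells, EVs therefore cannot be told apart from handling or culture time. The EV donors were controls (shCon), a CRIPTO knockdown (shCr) or CRIPTO overexpressors (CrOE), and the fibroblasts are called shCon-EV, shCr-EV and CrOE-EV cells here; CRIPTO is a membrane-anchored co-receptor of NODAL signalling. No label says whether replicate libraries came from separate cultures, so p-values measure the spread between these libraries, which may be technical. Donor cells and recipient cells were each a single line.

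The IL-6 family cytokines are secreted proteins that signal through gp130, the product of Il6st. IL-6 and IL-11 use a ligand-specific receptor with gp130, LIF uses the LIF receptor (Lifr) with gp130, and oncostatin M uses the oncostatin M receptor (Osmr). The receptors activate JAK kinases and the transcription factor STAT3, which induces Socs3, an inhibitor of gp130 and JAK. IL-33 is an alarmin of the IL-1 family that is stored in the nucleus. It binds ST2, the product of Il1rl1, which pairs with IL-1RAP and signals through MyD88 to NF-kB. The Il1rl1 gene gives a membrane receptor and a soluble decoy form; the table has 1 row for the gene, so the forms were not separated.

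Library totals lay between 25960054 and 37774020 estimated counts. The CrOE-EV libraries stood apart from the other 9, at 109 to 113 on the first principal component against -41.8 to -29.7, and this component held 73.7% of the variance. The column heads of these 3 libraries give only the protein's name, so their CrOE label was assigned by elimination. Fibroblast markers were present, with 9 of 9 above 3 counts in untreated cells and 8 of 9 in CrOE-EV cells. Their summed level was 15225 to 16212 CPM (the share of a library, scaled between libraries by TMM) in untreated cells, 17313 to 17484 in shCon-EV cells, 11857 to 13534 in shCr-EV cells and 4763 to 4951 in CrOE-EV cells. Epcam, an epithelial marker, had 0 counts in every library. The 6 epithelial markers summed to 1.14 to 1.69 CPM in untreated cells, 0.966 to 1.26 in shCon-EV cells, 0.987 to 1.51 in shCr-EV cells and 2.39 to 3.30 in CrOE-EV cells. The 5 leukocyte markers summed to 77.2 to 88.1 CPM in untreated cells, 46.8 to 48.8 and 50.4 to 57.8 in shCon-EV and shCr-EV cells, and 29.9 to 36.4 in CrOE-EV cells. Most of that sum was Cd14, while Ptprc, the pan-leukocyte marker, stayed at or below 7 counts in every library. The 4 endothelial markers summed to 0.589 to 0.769 CPM in untreated cells, 1.18 to 1.26 in shCon-EV cells, 0.961 to 1.59 in shCr-EV cells and 2.25 to 2.56 in CrOE-EV cells. In CrOE-EV against untreated cells, 3 of 3 tested endothelial and 2 of 3 tested epithelial markers were called higher, beside 36.7% of all genes. There 9 of 9 fibroblast markers and 2 of 3 tested leukocyte markers were called lower, beside 37.0% of all genes. The part of other cell types in the results was not tested. In bulk RNA, fewer cells with a transcript and less transcript per cell cannot be told apart.

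In shCon-EV cells, 8 of the 10 genes were called, all lower than in untreated cells: Il33, Il6, Socs3, Il1rl1, Il11, Il6st, Osmr and Lifr. A call is an adjusted p under 0.05 by edgeR's quasi-likelihood test over all tested genes. Over all 14279 genes, 38.1% were called in this comparison and 20.2% were called lower. At least 2-fold lower were 4 of the 10 genes (Il33, Il6, Socs3 and Il1rl1), against 3.54% of all genes. Because the 10 genes were chosen with earlier results of these data known, such contrasts with all genes are descriptions, not tests. The median log2 fold change was -0.69 over the 10 genes and 0.0069 over all genes. In every comparison TMM scaling centres the bulk of genes, so fold changes are relative to it. A change in total RNA would not show.

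In shCr-EV cells 8 genes were called, all lower: Il33, Il6, Socs3, Il1rl1, Il11, Il6st, Osmr and Lifr. Over all genes 37.3% were called and 18.8% called lower. Of the 10 genes 4 (Il33, Il6, Socs3 and Il1rl1) were at least 2-fold lower, against 3.53% of all genes. The 10 genes had a median log2 fold change of -0.72, and all genes had 0.020. In CrOE-EV cells, 8 genes were called, all lower; here Lif was called and Il11 was not. Calls were made for 73.7% of all genes in that comparison, so the number of calls among the 10 is near the background, while 37.0% of all genes were called lower. At least 2-fold lower were 7 of the 10 genes (Il33, Socs3, Lifr, Il1rl1, Il6, Il6st and Lif), against 18.7% of all genes. The median log2 fold change was -1.58 over the 10 genes and 0.0078 over all genes. The 3 comparisons share the untreated libraries.

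**Figure D1:**
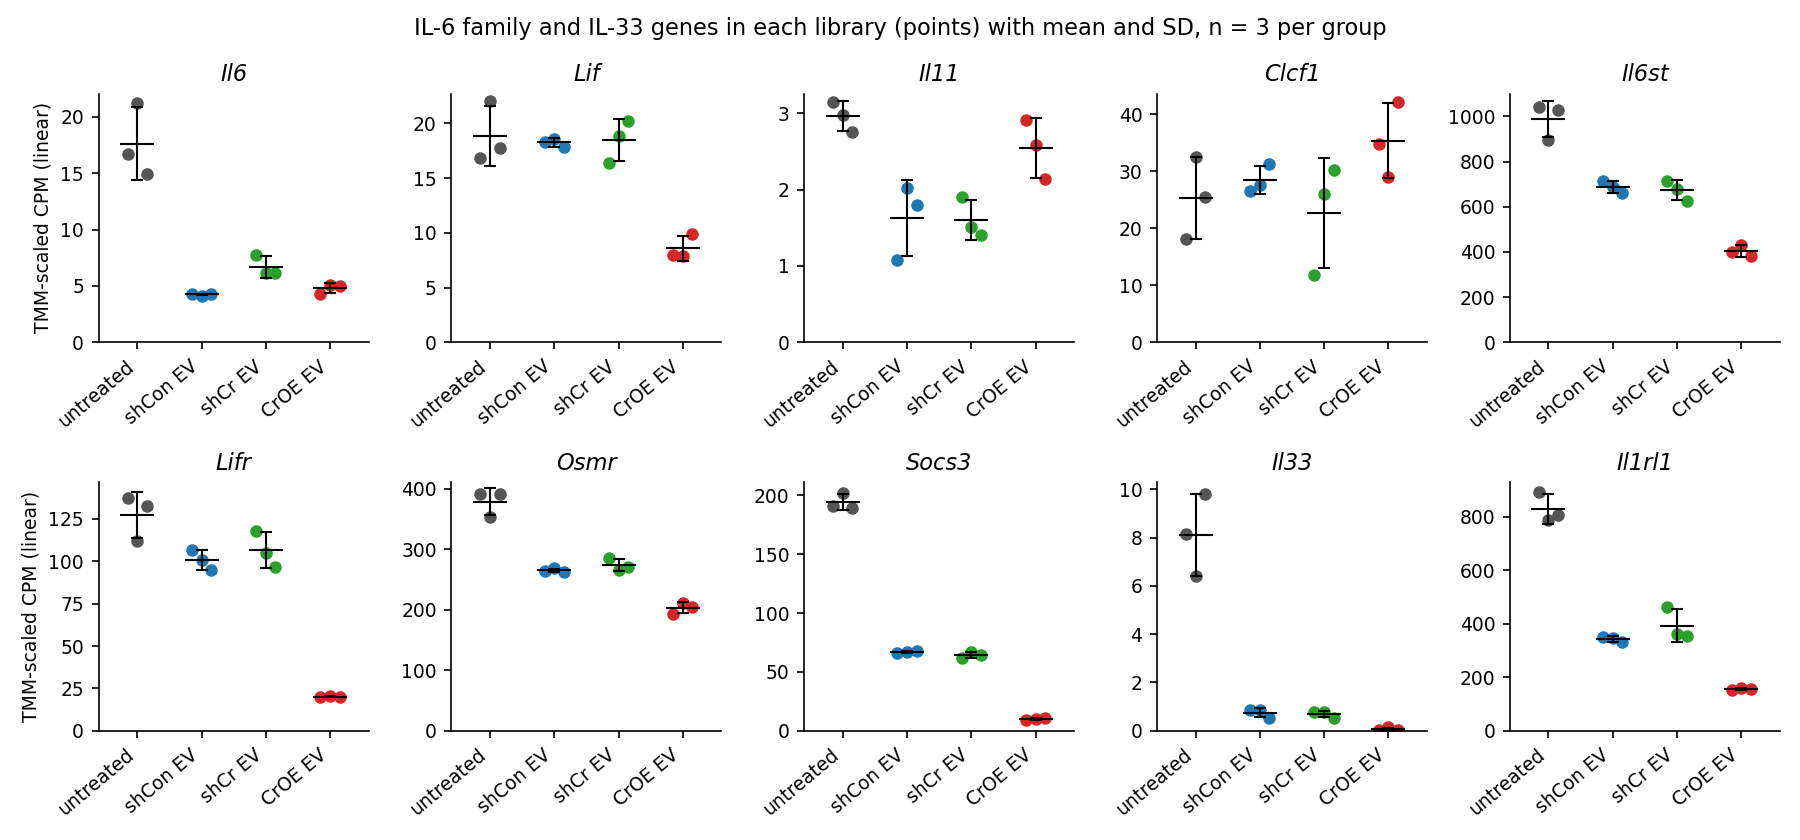
Each panel plots 1 gene, with TMM-scaled CPM on a linear axis from 0 and the 4 groups along the bottom; points are libraries, bars the mean and SD (n = 3). Socs3, Il33 and Il1rl1 have untreated libraries above every EV library, while Clcf1 overlaps between the untreated libraries and each EV group.

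The RefSeq promoter table, on build GRCm38.p6, held 13 entries for 9 of the 10 genes. The 250 bases before the start site were searched on both strands for TTCNNNGAA, the palindrome bound by STAT factors, a loose form of the NF-kB site (GGG and CC with 5 bases between them) and TGANTCA, the AP-1 site. Over all 32851 promoter entries, 7.02%, 45.8% and 6.75% held these letters. The entries shown, of Socs3, Il6, Lif and Il11, are those that held a STAT or AP-1 match. Socs3 and Il6 fell after every EV type, Lif in CrOE-EV cells, and Il11 in shCon-EV and shCr-EV cells. Il6st, Lifr, Osmr, Il33 and Il1rl1 were also called lower after every EV type, and their entries held neither match. The first Il11 entry held only NF-kB matches. Capitals mark the matches, and overlapping matches are joined. The Socs3 sequence is chr11:117969367-117969616 on the minus strand, that of Il6 chr5:30012864-30013113 on the plus strand, that of Lif chr11:4257318-4257567 on the plus strand and that of Il11, its second entry, chr7:4778142-4778391 on the minus strand.
Socs3 promoter: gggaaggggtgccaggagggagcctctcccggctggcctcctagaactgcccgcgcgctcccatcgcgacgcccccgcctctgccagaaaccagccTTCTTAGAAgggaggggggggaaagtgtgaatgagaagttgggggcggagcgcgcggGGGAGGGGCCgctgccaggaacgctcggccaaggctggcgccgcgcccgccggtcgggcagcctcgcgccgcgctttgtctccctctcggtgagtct
Il6 promoter: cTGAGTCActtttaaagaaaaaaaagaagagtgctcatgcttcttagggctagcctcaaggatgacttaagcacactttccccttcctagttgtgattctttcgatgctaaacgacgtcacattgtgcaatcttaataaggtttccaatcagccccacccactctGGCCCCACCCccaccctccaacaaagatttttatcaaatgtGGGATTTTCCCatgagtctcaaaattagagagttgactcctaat
Lif promoter: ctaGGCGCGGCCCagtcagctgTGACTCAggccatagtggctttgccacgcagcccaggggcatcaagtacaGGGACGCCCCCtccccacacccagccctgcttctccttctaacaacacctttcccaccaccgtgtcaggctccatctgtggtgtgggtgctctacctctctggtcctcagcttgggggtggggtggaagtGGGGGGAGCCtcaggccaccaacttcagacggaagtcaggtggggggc
Il11 promoter: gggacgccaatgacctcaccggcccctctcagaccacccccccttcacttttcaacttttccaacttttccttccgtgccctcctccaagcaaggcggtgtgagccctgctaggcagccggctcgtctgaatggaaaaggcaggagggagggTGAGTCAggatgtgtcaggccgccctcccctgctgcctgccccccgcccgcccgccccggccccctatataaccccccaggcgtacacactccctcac
Among the 13 entries, Socs3 alone held the STAT letters, as TTCTTAGAA beginning 154 bases before its start. Il6 held GGGATTTTCC beginning 44 bases before its start and an AP-1 match, TGAGTCA, at 249. Lif held its AP-1 match, TGACTCA, at 228, and the second Il11 entry held TGAGTCA at 98. The windows of Il6st, Il33 and Il1rl1 held none of the 3 motifs. A match is a description of the letters and was not tested for binding.

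Il6, the founding ligand of the family, was at 16.7, 21.2 and 14.97 CPM in the untreated libraries. It was at 4.26, 4.15 and 4.32 CPM in shCon-EV cells, 7.79, 6.12 and 6.15 in shCr-EV cells and 4.28, 5.12 and 4.97 in CrOE-EV cells. Every EV library lay below every untreated library, and the shCr-EV libraries lay above the shCon-EV and CrOE-EV libraries. The log2 fold change against untreated cells was -2.05 in shCon-EV cells (SE 0.14, adjusted p = 2.72e-07, edgeR), -1.40 in shCr-EV cells (SE 0.13, adjusted p = 4.30e-06) and -1.88 in CrOE-EV cells (SE 0.14, adjusted p = 4.91e-08). Il6 was the one gene of the 10 that was called between shCr-EV and shCon-EV cells, where it was 1.57-fold higher in shCr-EV cells (log2 fold change 0.65, 95% interval 0.33 to 0.97, adjusted p = 0.0158, edgeR). Leaving out any 1 of the 3 shCon-EV libraries ended this call (adjusted p = 0.0532 to 0.0665). Without the library of lowest mitochondrial share in each group the log2 fold change was 0.53 (adjusted p = 0.144, edgeR), and with that share as a covariate it was 0.65 (adjusted p = 0.0111). The first of these fits leaves out 4 libraries, so the part of lower power in a lost call cannot be told apart. In CrOE-EV cells Il6 was lower than in shCr-EV cells (log2 fold change -0.47, adjusted p = 0.00887, edgeR), also with the covariate (-0.47, adjusted p = 0.00715), while without those 4 libraries the value was -0.40 (adjusted p = 0.0633).

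Lif encodes leukaemia inhibitory factor, a ligand of LIFR and gp130. It was at 16.8, 22.0 and 17.7 CPM in the untreated libraries, 18.3, 18.6 and 17.8 in shCon-EV cells, and 16.4, 18.8 and 20.2 in shCr-EV cells. These 3 groups overlapped, and the 95% intervals of the log2 fold change against untreated cells were -0.30 to 0.21 in shCon-EV cells and -0.28 to 0.22 in shCr-EV cells. In CrOE-EV cells Lif was at 7.99, 7.85 and 9.86 CPM, below every other library. Its log2 fold change was -1.13 against untreated cells (SE 0.12, adjusted p = 1.85e-06, edgeR), -1.09 against shCon-EV cells (adjusted p = 2.90e-06) and -1.11 against shCr-EV cells (adjusted p = 2.12e-06).

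Il11, a gp130 ligand associated with fibrosis, was the least abundant of the 4 ligands. Its untreated libraries were at 3.15, 2.97 and 2.76 CPM, from 75 to 86 counts a library. It was at 1.07, 2.03 and 1.80 CPM in shCon-EV cells and 1.90, 1.51 and 1.40 in shCr-EV cells, below every untreated library. In CrOE-EV cells it was at 2.92, 2.59 and 2.13 CPM, which overlapped the untreated range and lay above both other EV groups. The log2 fold change against untreated cells was -0.85 in shCon-EV cells (SE 0.22, adjusted p = 0.00776, edgeR), -0.89 in shCr-EV cells (adjusted p = 0.00544) and -0.22 in CrOE-EV cells (95% interval -0.66 to 0.22, adjusted p = 0.347). Il11 was the one gene of the 10 that was called higher in CrOE-EV cells than in another EV group. The log2 fold change was 0.63 against shCon-EV cells (adjusted p = 0.0180, edgeR) and 0.67 against shCr-EV cells (adjusted p = 0.0122). Both calls were lost without CrOE-EV replicate 1 (adjusted p = 0.0703 and 0.0518), and the first also without shCon-EV replicate 1 (adjusted p = 0.0744). Without the library of lowest mitochondrial share in each group, the call against shCon-EV cells (log2 fold change 0.39, adjusted p = 0.112, edgeR) and the fall in shCon-EV cells (-0.58, adjusted p = 0.0545) were lost. With the mitochondrial share as a covariate both were calls (0.58, adjusted p = 0.0248, and -0.78, adjusted p = 0.0146, edgeR). The fit that leaves out libraries has lower power, and what ended its calls was not tested.

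Clcf1 encodes a ligand that signals through the ciliary neurotrophic factor receptor with LIFR and gp130. It was at 18.1, 32.5 and 25.4 CPM in the untreated libraries, 26.6, 27.7 and 31.3 in shCon-EV cells, 11.8, 26.1 and 30.2 in shCr-EV cells, and 34.9, 29.1 and 42.1 in CrOE-EV cells. Its replicates spread widely, with a coefficient of variation of 28.4% in untreated cells and 42.6% in shCr-EV cells. It was no call in any of the 6 comparisons; the interval of its log2 fold change in CrOE-EV cells ran from -0.12 to 1.09 against untreated cells, and its difference from shCr-EV cells was 0.63 (adjusted p = 0.0562, edgeR). Of its exon bases, 8.17% overlap a gene annotated on the same strand, AC109138.7.

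Clcf1 moved with a property of the libraries. In each of the 4 groups, the library with the lowest share of mitochondrially encoded counts was the one with the lowest Clcf1. These libraries were untreated replicate 1 (0.495% against 0.991% and 1.64%), shCon-EV replicate 1 (1.35% against 1.61% and 1.64%), shCr-EV replicate 1 (0.622% against 1.44% and 1.70%) and CrOE-EV replicate 2 (0.693% against 1.32% and 1.44%). Of all tested genes, 5.93% had that pattern in 4 of 4 groups. Il6st, Lifr and Il1rl1 had the opposite order, with their highest level in that library in 4 of 4 groups, as did 8.05% of all tested genes. With the mitochondrial share as a covariate, a fit chosen after the data were seen, Clcf1 was called higher in CrOE-EV cells than in untreated cells (log2 fold change 0.37, adjusted p = 0.00547, edgeR), in shCon-EV cells (0.59, adjusted p = 0.000165) and in shCr-EV cells (0.74, adjusted p = 1.13e-05). In that fit it was called lower in shCr-EV cells than in untreated cells (-0.37, adjusted p = 0.0138). Without the library of lowest mitochondrial share in each group, Clcf1 was also called higher in CrOE-EV cells, by 0.41 against untreated, 0.39 against shCon-EV and 0.45 against shCr-EV cells (adjusted p = 0.0192, 0.0257 and 0.0116, edgeR). There its difference between shCr-EV and untreated cells was no call (-0.038, adjusted p = 0.851). What sets the mitochondrial share was not tested.

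**Figure D2:**
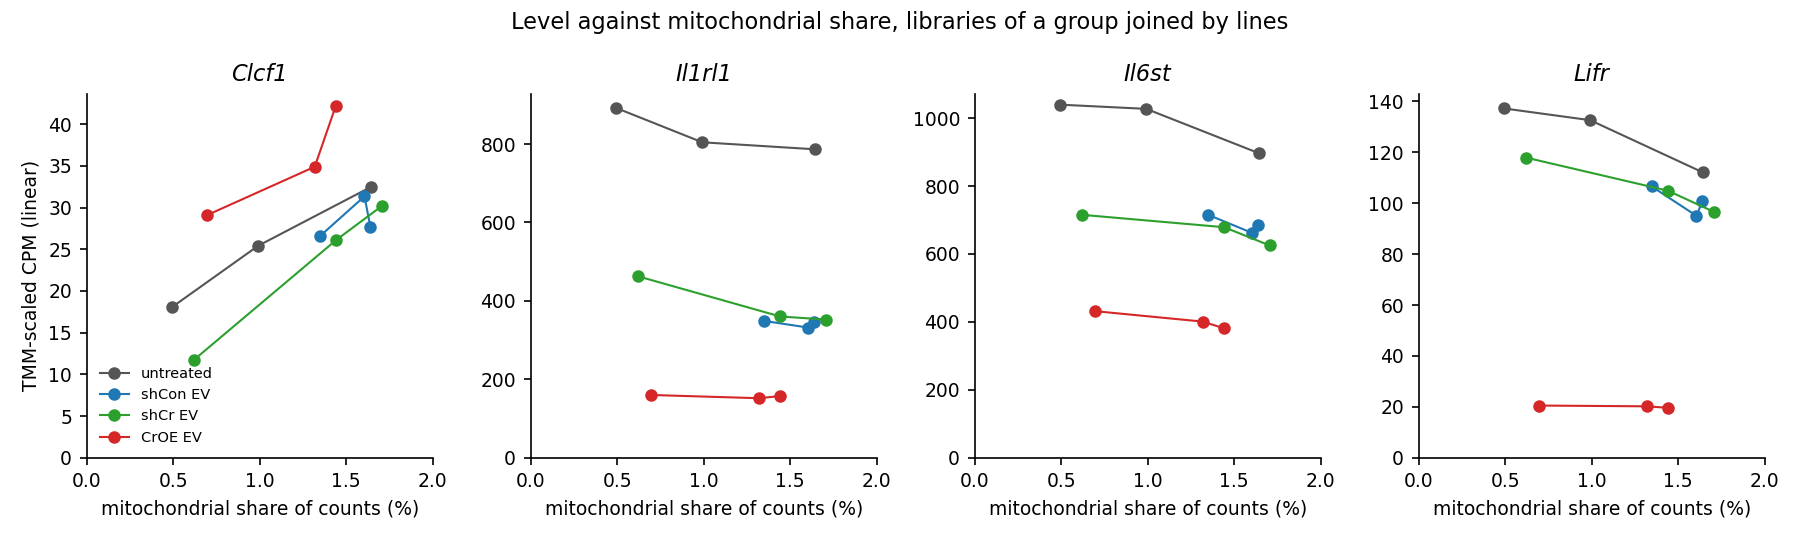
Each panel plots TMM-scaled CPM of 1 gene against the percentage of counts from mitochondrially encoded genes, with a point per library and the libraries of a group joined. Clcf1 is lowest, and Il1rl1, Il6st and Lifr are highest, at the left end of every line.

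Il6st, the shared gp130 chain, was at 1039, 896 and 1027 CPM in the untreated libraries, 716, 687 and 662 in shCon-EV cells, 715, 679 and 625 in shCr-EV cells, and 401, 432 and 381 in CrOE-EV cells. Untreated libraries lay above all EV libraries, and CrOE-EV libraries lay below all others. Its log2 fold change against untreated cells was -0.52 in shCon-EV cells (SE 0.073, adjusted p = 0.000112, edgeR), -0.55 in shCr-EV cells (adjusted p = 6.43e-05) and -1.29 in CrOE-EV cells (adjusted p = 3.99e-09). Against shCon-EV and shCr-EV cells, CrOE-EV cells had 1.70-fold and 1.66-fold less Il6st (adjusted p = 7.21e-07 and 9.67e-07, edgeR).

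Osmr, the oncostatin M receptor chain, was at 391, 353 and 391 CPM in the untreated libraries, 263, 269 and 263 in shCon-EV cells, 285, 266 and 271 in shCr-EV cells, and 193, 211 and 204 in CrOE-EV cells. The log2 fold changes against untreated cells were -0.51 (SE 0.055, adjusted p = 1.29e-05, edgeR), -0.46 (adjusted p = 2.76e-05) and -0.90 (adjusted p = 8.45e-09). The shCon-EV and shCr-EV libraries overlapped, and CrOE-EV libraries lay below both (log2 fold change -0.38 and -0.43, adjusted p = 3.50e-05 and 1.03e-05, edgeR).

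Lifr, the LIF receptor chain, was at 137, 112 and 133 CPM in the untreated libraries, 107, 101 and 95.1 in shCon-EV cells, 118, 105 and 96.7 in shCr-EV cells, and 20.2, 20.5 and 19.7 in CrOE-EV cells. Its log2 fold change of -2.66 in CrOE-EV cells (95% interval -2.86 to -2.46, adjusted p = 3.03e-11, edgeR) was a 6.32-fold fall, beside 2.44-fold for Il6st and 1.86-fold for Osmr, and the 3 intervals did not overlap. In shCon-EV cells the log2 fold change was -0.34 (adjusted p = 0.00748, edgeR). In shCr-EV cells it was -0.26 (adjusted p = 0.0297, edgeR), with 1 untreated library inside the range of the shCr-EV libraries. That call was lost without any 1 of 4 libraries, untreated replicates 1 and 3 and shCr-EV replicates 2 and 3 (adjusted p = 0.0780 to 0.122), and when only these groups were modelled (0.0961). The log2 fold change of Lifr in CrOE-EV cells was -2.32 against shCon-EV cells and -2.40 against shCr-EV cells (adjusted p = 1.27e-10 and 7.61e-11, edgeR).

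Socs3, the feedback inhibitor and a classic STAT3 target, had tight replicates. It was at 191, 202 and 189.6 CPM in the untreated libraries, 66.1, 66.8 and 68.1 in shCon-EV cells, 61.7, 66.7 and 64.1 in shCr-EV cells, and 8.94, 9.86 and 10.7 in CrOE-EV cells. The groups formed 3 separate levels: untreated cells, shCon-EV with shCr-EV cells, and CrOE-EV cells. Its log2 fold change was -1.53 in shCon-EV cells (SE 0.060, adjusted p = 3.93e-09, edgeR), -1.60 in shCr-EV cells (adjusted p = 2.05e-09) and -4.30 in CrOE-EV cells (SE 0.069, adjusted p = 7.08e-14). The last is a 19.7-fold fall. Between shCr-EV and shCon-EV cells the interval of the log2 fold change was -0.19 to 0.066. Against shCon-EV cells, Socs3 was 6.80-fold lower in CrOE-EV cells (adjusted p = 1.91e-12, edgeR).

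Il33 had the steepest fall of the 10 genes in each comparison with untreated cells. It was at 8.16, 6.40 and 9.79 CPM in the untreated libraries, 0.859, 0.863 and 0.540 in shCon-EV cells, and 0.776, 0.769 and 0.530 in shCr-EV cells. No EV library came near the untreated range. The log2 fold change was -3.42 in shCon-EV cells (SE 0.26, adjusted p = 5.62e-07, edgeR) and -3.56 in shCr-EV cells (SE 0.26, adjusted p = 3.57e-07), and between these EV groups its interval was -0.84 to 0.54. In CrOE-EV cells the 3 libraries held 1, 5 and 1 counts of Il33, against 168 to 266 in each untreated library. Over the group, 7 counts against 657 gave untreated cells a 119-fold higher share, with an exact 95% interval of 57.5 to 297 that covers counting error only. The share in shCon-EV cells was 11.02-fold (5.06 to 28.5) and in shCr-EV cells 9.84-fold (4.52 to 25.4) that in CrOE-EV cells. The fall in CrOE-EV cells was a call against untreated cells (adjusted p = 1.98e-09, edgeR), shCon-EV cells (adjusted p = 3.49e-05) and shCr-EV cells (adjusted p = 5.05e-05). Its size rests on CrOE-EV replicate 2, which holds 5 of the 7 counts: the log2 fold change against untreated cells was -6.80 with it and -7.90 without it.

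Il1rl1, the IL-33 receptor gene, was at 892, 787 and 804 CPM in the untreated libraries, 349, 348 and 332 in shCon-EV cells, 463, 360.4 and 353 in shCr-EV cells, and 152, 160.3 and 157 in CrOE-EV cells. Its log2 fold change was -1.27 in shCon-EV cells (SE 0.091, adjusted p = 3.74e-07, edgeR), -1.08 in shCr-EV cells (adjusted p = 1.38e-06) and -2.40 in CrOE-EV cells (adjusted p = 1.03e-10). The shCr-EV libraries lay above the shCon-EV libraries, but the difference was no call (log2 fold change 0.19, 95% interval -0.0032 to 0.39, adjusted p = 0.231, edgeR). The highest of them was replicate 1, the library of low mitochondrial share. In CrOE-EV cells Il1rl1 was 2.19-fold lower than in shCon-EV cells and 2.50-fold lower than in shCr-EV cells (adjusted p = 1.41e-07 and 2.68e-08, edgeR).

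**Figure D3:**
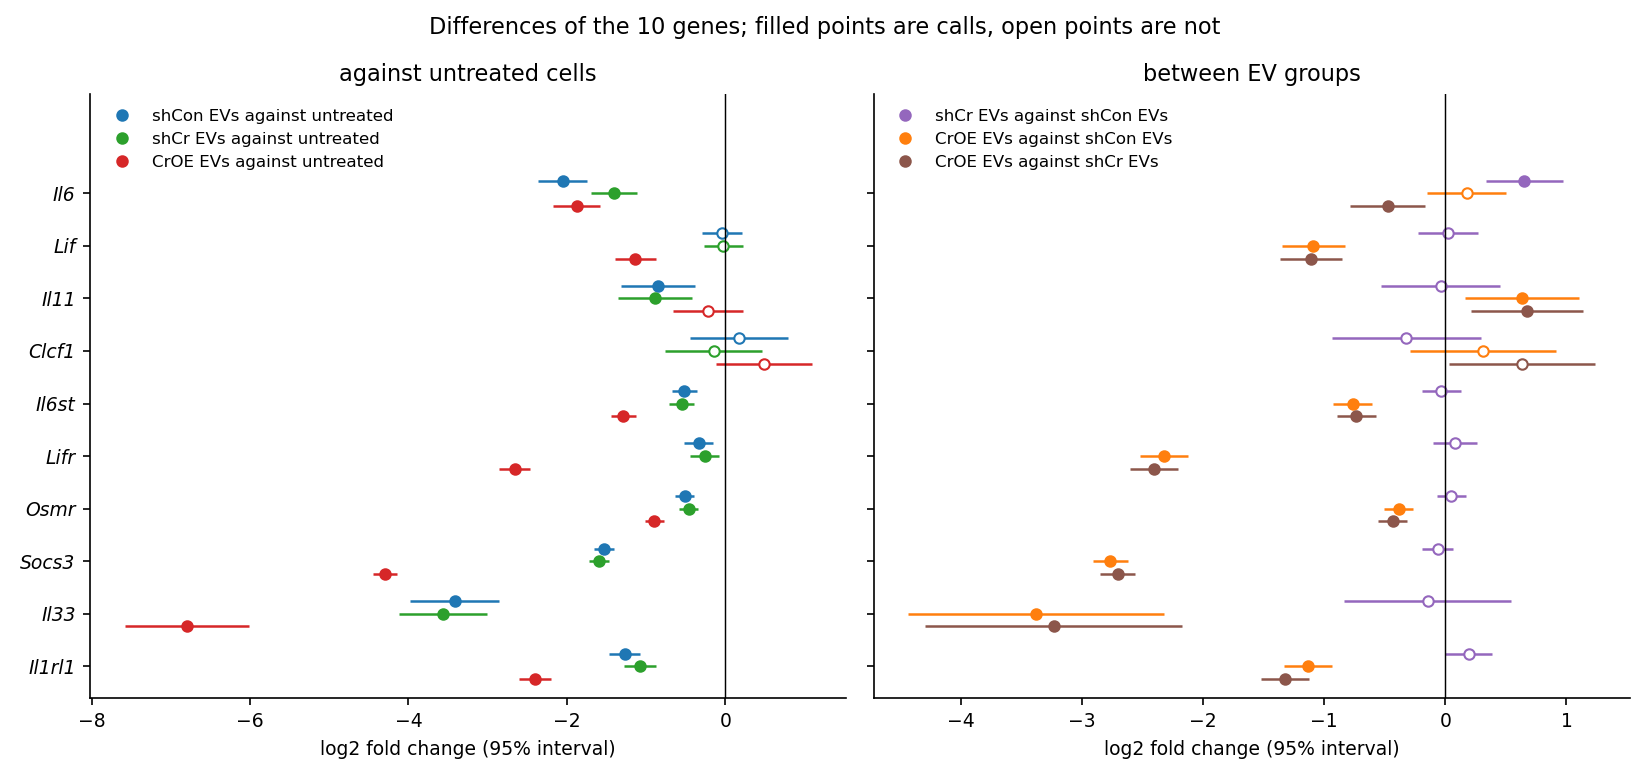
Log2 fold changes of the 10 genes with 95% intervals, against untreated cells on the left and between EV groups on the right; filled points are calls and open points are not. On the left the CrOE-EV points of Socs3, Lifr and Il33 lie at -4.30, -2.66 and -6.80, beyond those of the other EVs; on the right Il6 is the single filled point for shCr-EV against shCon-EV cells.

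The comparisons between EV groups set EVs of donor cells with different CRIPTO labels against each other. No group is labelled as a control for overexpression. In the CrOE-EV comparisons, CRIPTO therefore cannot be told apart from other differences between the donor cells. For shCr-EV against shCon-EV cells, 1 of the 10 genes was called, higher, beside 8.73% called and 5.22% called higher among all genes, and the median absolute log2 fold change was 0.070 over the 10 genes and 0.12 over all genes. The intervals of Il6st, Osmr, Lifr and Socs3 all lay between -0.19 and 0.26; those of Il11, Clcf1 and Il33 were wider. For CrOE-EV against shCon-EV cells, 8 of 10 genes were called, 7 lower and 1 higher, beside 72.6% called, 36.1% called lower and 36.5% called higher among all genes. For CrOE-EV against shCr-EV cells, 9 of 10 were called, 8 lower and 1 higher, beside 73.9% called, 37.0% lower and 36.9% higher. Both counts of calls are near the background. In both, Lif, Lifr, Socs3, Il33 and Il1rl1 were at least 2-fold lower in CrOE-EV cells, against 17.9% and 18.6% of all genes.

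Levels of different genes were compared per kilobase of the longest annotated transcript. In untreated cells Il1rl1 was highest, at 156 ± 10.6 CPM per kb (SD, n = 3), followed by Il6st at 114 ± 9.13, Socs3 at 76.1 ± 2.58 and Osmr at 68.9 ± 4.07. Lifr was at 13.2 ± 1.39 CPM per kb, and the ligands were lower still. Il6 (7.53 ± 1.38) and Clcf1 (7.13 ± 2.03) overlapped, as did Clcf1 and Lif (4.68 ± 0.687), and below them stood Il33 (3.19 ± 0.665) and Il11 (1.52 ± 0.100). In CrOE-EV cells the order of levels was Il6st at 46.6 ± 2.92, Osmr at 37.0 ± 1.66, Il1rl1 at 29.5 ± 0.795 and Clcf1 at 9.96 ± 1.85 CPM per kb. Socs3 stood at 3.85 ± 0.344, below Clcf1. Lif (2.13 ± 0.278), Lifr (2.09 ± 0.0464) and Il6 (2.04 ± 0.191) overlapped, Il11 was at 1.31 ± 0.202 and Il33, from 7 counts in all, at 0.0269 ± 0.0262.

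The genes whose levels followed a member most closely over the 12 libraries were found by Pearson's r of log2 CPM, as a description; all share the same libraries and the separation of the CrOE-EV group. Il6 was followed most closely by Lcn2 (r = 0.971), which encodes lipocalin 2, Socs3 by Eno3 (r = 0.998) and Cav1 (r = 0.997), and Il33 by Jak1 (r = 0.991) and Il13ra2 (r = 0.988). Jak1 was at 339 CPM in untreated cells and 279, 275 and 233 in shCon-EV, shCr-EV and CrOE-EV cells. Its fall was far smaller than that of Il33, as r does not measure the size of a change. Il13ra2, a decoy receptor for IL-13, was at 8.91 CPM in untreated cells and 2.12, 2.00 and 0.581 in shCon-EV, shCr-EV and CrOE-EV cells. Fam111a led for Il1rl1 (r = 0.998), Gnptab for Lifr (r = 0.999), Slc1a3 for Il6st (r = 0.994), Pkd2 for Osmr (r = 0.995) and Polm for Lif (r = 0.989). For Il11 the closest gene, Rfc3, reached 0.932, and for Clcf1 it was Safb (r = 0.982).

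The other ligands and receptors of the IL-6 family numbered 11, of which 8 were tested; Osm had 0 counts in every library. In shCon-EV cells 4 were called lower and 0 higher, in shCr-EV cells 3 lower and 2 higher, and in CrOE-EV cells 5 lower and 0 higher. Their median log2 fold changes were -0.38, -0.055 and -1.30. Beside these counts, 18.0% of all genes were called higher in shCon-EV cells, 18.4% in shCr-EV cells and 36.7% in CrOE-EV cells, and 20.2%, 18.8% and 37.0% were called lower. The shares of all genes called in either direction were 38.1%, 37.3% and 73.7%, and the counts of the next lists are set beside the same shares. Il11ra1, the IL-11 receptor, was at 51.0 ± 2.74 CPM in untreated cells (SD, n = 3), 42.4 ± 0.774 in shCon-EV cells, 52.8 ± 3.47 in shCr-EV cells and 13.2 ± 0.998 in CrOE-EV cells (CrOE-EV against untreated: log2 fold change -1.95, adjusted p = 5.58e-11, edgeR). Il6ra, the IL-6 receptor, was at 32.3 ± 1.21 CPM in untreated cells 32.8 ± 0.572 in shCon-EV cells and 37.8 ± 2.97 in shCr-EV cells, and lower in CrOE-EV cells than in shCon-EV cells, at 13.4 ± 0.663 (log2 fold change -1.30, adjusted p = 2.14e-09, edgeR). Ctf1, the ligand cardiotrophin 1, fell from 6.06 ± 0.565 CPM to 4.29 ± 0.536, 3.98 ± 0.584 and 2.40 ± 0.0496. Il31ra, which pairs with Osmr to bind IL-31, was singled out after its values were seen. It was at 4.38 ± 0.199 CPM in untreated cells, 0.705 ± 0.196 in shCon-EV cells, 1.10 ± 0.178 in shCr-EV cells and 0.0804 ± 0.0403 in CrOE-EV cells, with at most 4 counts a library in the last group.

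Among 9 JAK and STAT pathway genes, 5 were called lower and 2 higher in shCon-EV cells, 5 lower and 2 higher in shCr-EV cells, and 8 lower and 0 higher in CrOE-EV cells (median log2 fold changes -0.28, -0.31 and -0.72). That is 7, 7 and 8 of 9 called, beside 38.1%, 37.3% and 73.7% of all genes. Stat3, the main factor downstream of gp130, was at 447 ± 4.69 CPM in untreated cells, 365 ± 7.35 in shCon-EV cells, 361 ± 24.0 in shCr-EV cells and 151 ± 2.68 in CrOE-EV cells (SD, n = 3), and fell in each comparison (adjusted p = 0.000719, 0.000457 and 2.42e-11, edgeR). Stat5a was at 53.9 CPM in untreated cells and 33.4, 29.6 and 9.11 in shCon-EV, shCr-EV and CrOE-EV cells. Tyk2 rose in shCon-EV and shCr-EV cells (log2 fold changes 0.57 and 0.72) and fell in CrOE-EV cells (-0.34, adjusted p = 0.0378, edgeR).

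Of 11 other feedback genes, 7 were called lower and 0 higher in shCon-EV cells and in shCr-EV cells, and 7 lower and 4 higher in CrOE-EV cells. The median log2 fold changes were -0.43, -0.35 and -0.53. Of all genes, 38.1%, 37.3% and 73.7% were called, with 20.2%, 18.8% and 37.0% lower and 18.0%, 18.4% and 36.7% higher. Cish, a STAT5-induced inhibitor, was at 15.6 ± 3.77 CPM in untreated cells and 7.06 ± 0.616, 7.48 ± 0.901 and 2.87 ± 0.547 in shCon-EV, shCr-EV and CrOE-EV cells (SD, n = 3). Socs1 was at 15.3 ± 1.72 CPM and 9.08 ± 0.535, 9.14 ± 1.92 and 3.78 ± 0.534. Socs2, an inhibitor of growth hormone signalling, had another order: 24.6 ± 1.99 CPM in untreated cells, 4.36 ± 0.220 in shCon-EV cells, 7.07 ± 0.732 in shCr-EV cells and 14.5 ± 1.06 in CrOE-EV cells. It was higher in CrOE-EV cells than in shCon-EV cells (log2 fold change 1.73, SE 0.10, adjusted p = 5.70e-09, edgeR), where Socs3 was lower.

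**Figure D4:**
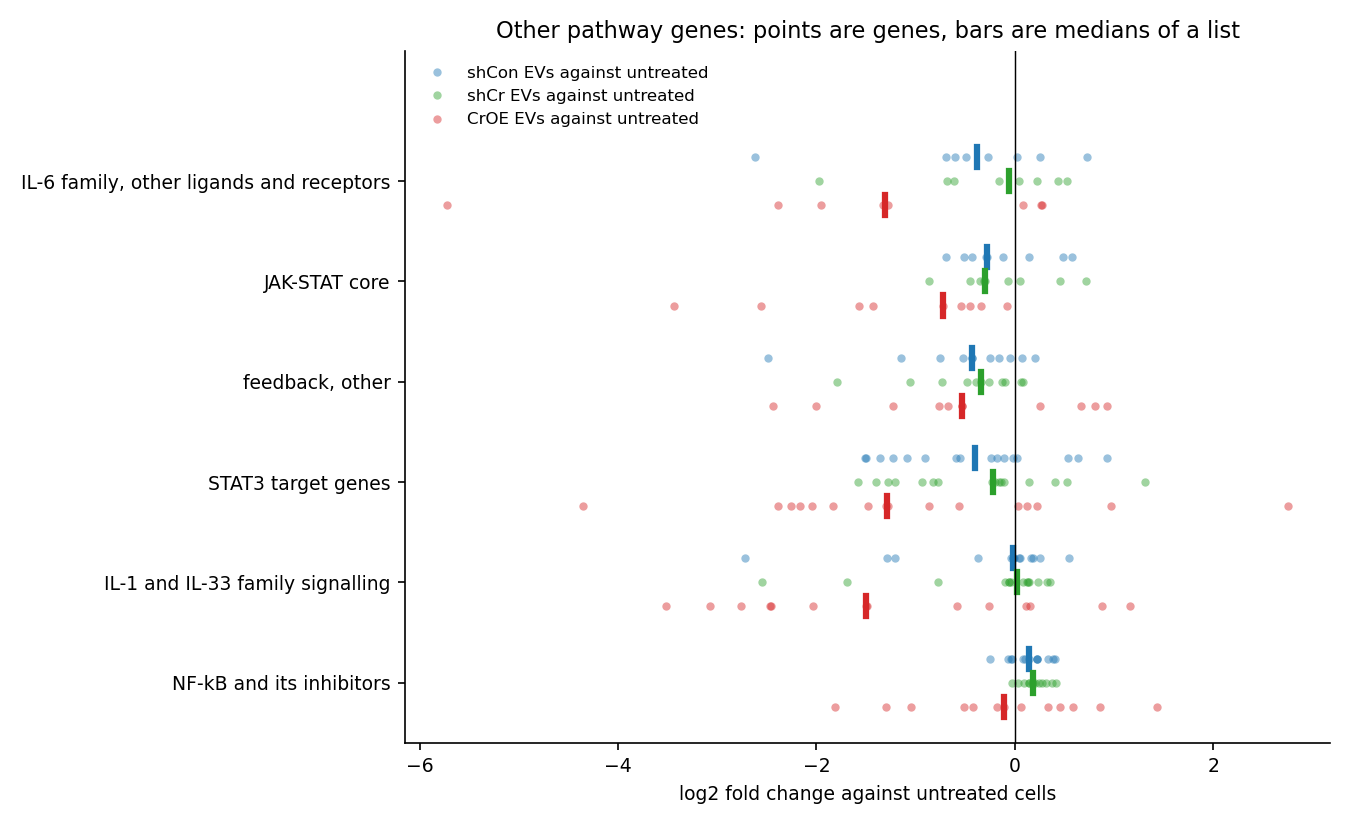
Log2 fold changes against untreated cells for the tested genes of 6 lists, 1 point per gene and a bar at the median of a list, for the 3 EV groups. The CrOE-EV medians of the IL-6 family, STAT3 target and IL-1 family lists lie at -1.30, -1.29 and -1.50, and that of the NF-kB list at -0.11.

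Genes that STAT3 is known to induce numbered 16, all tested. In shCon-EV cells 9 were called lower and 3 higher, in shCr-EV cells 9 lower and 3 higher, and in CrOE-EV cells 11 lower and 4 higher (median log2 fold changes -0.40, -0.22 and -1.29). These are 12, 12 and 15 of 16 called, beside 38.1%, 37.3% and 73.7% of all genes, of which 20.2%, 18.8% and 37.0% were called lower. Ccnd1, cyclin D1, was at 288 CPM in untreated cells, 101 in shCon-EV cells, 162 in shCr-EV cells and 14.1 in CrOE-EV cells. Lcn2 was at 418 ± 23.0 CPM, 162 ± 1.75, 218 ± 11.9 and 172 ± 31.3 in the same order. Timp1, an inhibitor of metalloproteinases, was at 195 ± 4.64 CPM in untreated cells and fell in every EV group, to 91.6 ± 2.02, 73.8 ± 3.90 and 40.9 ± 1.78 (log2 fold changes -1.09, -1.40 and -2.25). In the other direction, Saa3, an acute-phase protein, rose in shCon-EV cells (1323 ± 61.2 CPM) and shCr-EV cells (1725 ± 481) from 694 ± 48.7 and fell in CrOE-EV cells (281 ± 39.9), and Myc rose in CrOE-EV cells from 34.9 to 235 CPM (log2 fold change 2.75, SE 0.10), with no call in shCon-EV or shCr-EV cells (34.4 and 29.8 CPM).

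Of 17 genes of IL-1 and IL-33 family signalling, 14 were tested. In shCon-EV and shCr-EV cells 3 were called lower and 2 higher in each case, with medians of -0.013 and 0.023, and in CrOE-EV cells 10 were lower and 2 higher, with a median of -1.50. The 5, 5 and 12 of 14 called stand beside 38.1%, 37.3% and 73.7% of all genes. Il1rap, the chain that pairs with ST2, was at 192 ± 8.67 CPM in untreated cells, 187 ± 2.84 in shCon-EV cells, 240.2 ± 22.3 in shCr-EV cells and 28.2 ± 0.954 in CrOE-EV cells (SD, n = 3). It was no call in shCon-EV cells (adjusted p = 0.710, edgeR), rose in shCr-EV cells (log2 fold change 0.32, adjusted p = 0.00140) and fell in CrOE-EV cells (-2.76, adjusted p = 1.81e-12). Il1rn, the secreted IL-1 receptor antagonist, fell from 19.99 ± 2.96 CPM to 3.03 ± 0.0589, 3.44 ± 0.609 and 2.38 ± 0.112. Il1r1, the IL-1 receptor, was at 104 ± 10.9 CPM and 45.2 ± 1.28, 60.8 ± 6.31 and 9.11 ± 0.656. Il18rap was at 17.7 CPM in untreated cells, 7.23 in shCon-EV cells, 5.48 in shCr-EV cells and 6.24 in CrOE-EV cells.

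The 13 NF-kB subunits, kinases and inhibitors, all tested, showed 1 called lower and 5 higher in shCon-EV cells, 0 lower and 6 higher in shCr-EV cells, and 6 lower and 5 higher in CrOE-EV cells (median log2 fold changes 0.14, 0.19 and -0.11). The 6, 6 and 11 of 13 called are near the shares of all genes called, 38.1%, 37.3% and 73.7%. Nfkbia, an NF-kB-induced inhibitor, was at 82.1 ± 3.16 CPM in untreated cells, 69.0 ± 1.18 in shCon-EV cells, 90.6 ± 2.04 in shCr-EV cells and 23.3 ± 1.66 in CrOE-EV cells (SD, n = 3). It was higher in shCr-EV than in shCon-EV cells (log2 fold change 0.39, adjusted p = 0.000846, edgeR). Nfkbib rose in CrOE-EV cells by a log2 fold change of 1.43, while Nfkbia fell by 1.81 on that scale. Rel rose in shCon-EV cells (log2 fold change 0.39) and shCr-EV cells (0.42) and fell in CrOE-EV cells (-0.18, adjusted p = 0.0316, edgeR).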

How the data were processed

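RNA of 3T3 cells was selected for poly(A) and made into directional libraries, per the labels' protocols. The deposited values are unscaled estimated counts, 1 per symbol and library; 39.8% were not whole numbers. The submitters' processing notes name featureCounts and mm39 with no role; aligner, annotation and use of strand are not given in the sources used here. Counts were rounded, filtered with filterByExpr and TMM-scaled. One edgeR 4.0.16 model (R 4.3.3) over the 12 libraries, with 8 residual degrees of freedom, gave quasi-likelihood F-tests; Benjamini-Hochberg adjustment ran over 14279 genes. SEs and 95% intervals came from the F statistic. Levels of 3 counts or fewer were taken as the floor. Counting intervals cover counting error only. Levels per kb used GENCODE M21 transcripts. Promoters came from RefSeq on GRCm38.p6, without bases after the start site; the files' build may differ, so nothing was joined by coordinate.

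The script was tested on simulated data. Alternative settings covered scaling by median-of-ratios, DESeq2 1.42.0, other filters on low counts, a replicate block, fits of only 2 groups and each library left out. Fits without low-mitochondrial libraries and with that share as a covariate were added after the data were seen. The former have fewer libraries in each group and so less power to call genes. From each pathway list, up to 2 genes per comparison were eligible to be named: those with the largest called changes among genes whose mean log2 CPM reached 1 and whose groups did not overlap. Stat3 and Il31ra were named outside that rule, with values known. One gene that the rule names is not reported here. The 10 genes and the lists were chosen with earlier results of these data known.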

Additional observations from a re-analysis of the deposited data

How the results depend on the processing

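Across the 6 comparisons, log2 fold changes of the 10 genes kept their side of the threshold and, where called, their direction under median-of-ratios size factors and DESeq2 (60 of 60 each), and under at least 10 counts in every library (54 of 54, as Il33 did not pass that filter). Without a low-count filter 59 of 60 did, and in models of only 2 groups 58. Leaving out 1 library kept 705, with 10 calls lost and 5 gained, and no called value changed sign in any alternative run. For shCr against shCon EVs the 1247 genes called became 639 in a model of only these groups, 751 without the library of lowest mitochondrial share in each group, and 636 to 1398 with 1 library left out, the lowest without shCon EV replicate 2 (680 and 685 without its replicates 1 and 3). The count of the 10 genes called there, 1, became 0 without those 4 libraries and ranged from 0 to 1 with 1 left out. Same-numbered libraries of different groups did not deviate together (correlations -0.20 to 0.32, median 0.0050), and 4 of 12 libraries correlated best with their own number. With the replicate number as a block, 1281 genes were called for shCr against shCon EVs and 10677 for CrOE against shCr EVs, and Clcf1 became a call in the latter (adjusted p = 0.0160, edgeR); no other call of the 10 genes changed. Clcf1 was also called there without the filter (adjusted p = 0.0275) and without shCr EV replicate 3 (0.0160) or CrOE EV replicate 2 (0.0474), untreated replicate 1 (0.0457) or 2 (0.0492). In addition, it was called after CrOE EVs against untreated cells without shCr EV replicate 1 (0.0214), and against shCon EVs in a model of only these groups (0.0245). The cause was not tested. Depth limits Il33 after CrOE EVs, at 7 counts in all, and Il11, at 30 to 92 counts a library.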
